A study of Mus musculus with 8 samples.

Results

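The genes described are the 10 lipoxygenase and cyclooxygenase enzyme genes Alox5, Alox5ap, Alox12, Alox15, Lta4h, Ltc4s, Ptgs1, Ptgs2, Ptges and Ptgds in whole mouse thyroids, 24 hours after the gland was irradiated from within by 99mTcO4-. They were taken by name from the array annotation, with all of their probes, and the list was chosen by the exposed-minus-control differences of these same arrays, so those differences are given as a description and support nothing. The arrays held 12 probes (21 spots) for them, of 55681 probes (59305 spots) and 21021 genes with a RefSeq probe. The mice were 8-week-old female Balb/c animals. The 4 exposed mice (Tc; samples S539, S588, S589 and S590) received 99mTcO4- by intraperitoneal injection, with 30 Gy absorbed by the thyroid, and the 4 control mice (Ct; samples 1 to 4) were described as untreated in one place and as given saline in another. No altered allele is named for these animals, and each array held the RNA of 1 mouse. The comparison addresses what the absorbed dose changed in thyroid gene expression at 24 hours.

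These enzymes turn arachidonic acid, released from membranes by phospholipases A2, into short-lived lipid signals. In the 5-lipoxygenase branch, Alox5 works with its helper protein Alox5ap to make leukotriene A4, which Lta4h converts to leukotriene B4 and Ltc4s joins to glutathione to give leukotriene C4, the first of the cysteinyl leukotrienes. Alox12 and Alox15 oxygenate arachidonic acid at other carbons. In the cyclooxygenase branch, Ptgs1 and Ptgs2 make prostaglandin H2, which Ptges converts to prostaglandin E2 and Ptgds to prostaglandin D2. Alox5, Alox5ap and Ltc4s are best known from leukocytes, and Ptgs2 is best known as the inducible cyclooxygenase of injured and inflamed tissue. The glands were measured as bulk tissue, in which more or fewer cells of a type and more or less RNA per cell cannot be told apart.

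Each probe is a stretch of 60 bases of the transcript, and where it lies bears on which RNA it reads, so the probes of the genes on which the results turn are shown first. Positions are given in the mm9 build, as in the array files. For probes in which all 3 reading frames hold a stop codon, or in which a poly(A) signal hexamer (AATAAA or ATTAAA) was found, 30 bases are given, and for the others the whole probe. Capitals mark the hexamer. The Alox5 probe starts at base 2530 of its transcript, the Ltc4s probe at base 530, the upstream Ptges probe at base 364 and the downstream Ptges probe at base 3583 of the same transcript, and the Alox15 probe at base 1426 of its transcript.
Alox5, chr6:116360326-116360385, minus strand, bases 1 to 30 of the probe: tttatgcttcctccaattgcttgcatagag
Ltc4s, chr11:50049974-50050031, minus strand, bases 28 to 57 of the probe: tcccagtttttaATTAAAgttcccacgacg
Ptges upstream (A_55_P1974189), chr2:30748214-30748273, minus strand: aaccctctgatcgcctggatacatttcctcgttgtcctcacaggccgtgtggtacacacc
Ptges downstream (A_55_P1974193), chr2:30744995-30745054, minus strand, bases 30 to 59 of the probe: aagtcagccccaATTAAAtgctttccttta
Alox15, chr11:70159115-70159339, minus strand: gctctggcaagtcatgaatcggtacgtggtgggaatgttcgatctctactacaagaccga
The Alox15 probe covers 225 bases of the genome with 60 bases of transcript, so it lies across an intron. The 2 Ptges probes start 3219 bases apart. In the upstream Ptges probe 2 reading frames are free of stop codons, and in the downstream one none is. A hexamer was found in 3 of the 12 probes, those of Ltc4s and Ptgds and the downstream probe of Ptges. Over the 66 pairs of probes, the longest run of bases shared by a pair was 9, so no 2 of them are near copies of each other.

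The 8 arrays were on 1 slide and scanned once. Exposed thyroids took the first 4 positions and controls the rest, so position and exposure cannot be told apart. Between 60.5% and 77.3% of spots were well above background per array. The thyrocyte markers (10 of 10, Tg and Slc5a5 among them) were well above background on every array. Sample S588 stood apart by a high mean of 12 neutrophil markers, and samples Ct 1 and Ct 2 by a high mean of T cell markers. The mean of 5 thymocyte (immature T cell) markers was also high in these 2 controls. On the log2 scale it was 9.11 in Ct 2 and higher in Ct 1, against 4.89 to 6.47 on the remaining arrays. Whether samples Ct 1 and Ct 2 held thymus tissue was not tested. All values below are log2 signals, that is, the base 2 logarithm of the background-subtracted spot brightness after quantile normalization, and values are compared between arrays for 1 probe, never between probes.

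Of the 12 probes, 10 were well above background on all 8 arrays, and those of Alox15 and Ptgs2 were not. In the limma fit over all 55681 probes, 1 of the 12 was called at an adjusted p under 0.05, that of Alox5, which was higher in the exposed thyroids. None was called lower by limma, and before adjustment 2 of the lower probes (Alox12 downstream and Ptges upstream) had a p under 0.05. In either direction, 6772 of all 55681 probes had such an unadjusted p. The share of all probes called was 0.781%. The 4 exposed arrays lay wholly above the 4 control arrays for 2 probes (Alox5 and Ltc4s) and wholly below them for 2 (Lta4h and the upstream probe of Ptges). Groups stood apart in this way for 9.11% of all probes. Since the genes were chosen with this contrast known, nothing is read from these shares. The median difference of the 12 probes, exposed minus control, was -0.23 on the log2 scale, against 0.0077 over all probes, and their differences ran from -0.79 to 1.64.

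**Figure D1:**
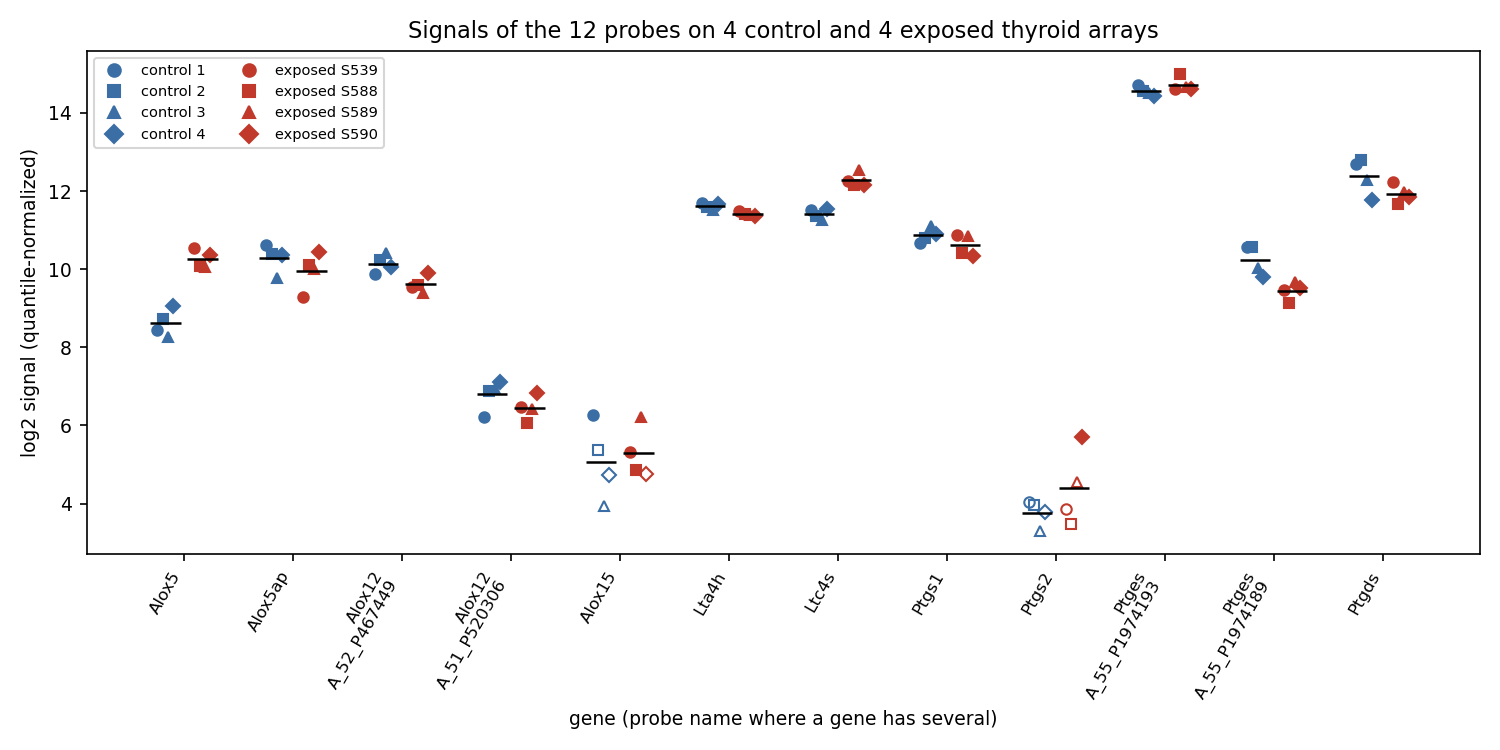
The log2 signal (vertical axis) of each of the 12 probes (horizontal axis) on the 4 control arrays (blue) and the 4 exposed arrays (red), with the mean of each group as a black line; open symbols are arrays on which the probe was not well above background. The groups are apart for Alox5, Ltc4s, Lta4h and the Ptges probe A_55_P1974189, and the Ptgs2 symbol is filled on 1 array.

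Alox5, which starts leukotriene synthesis, gave the largest difference of the 12 probes, 3.11-fold higher in the exposed thyroids. Its log2 signal was 8.45, 8.73, 8.27 and 9.05 in controls 1 to 4. In the exposed samples S539, S588, S589 and S590 it was 10.54, 10.09, 10.05 and 10.37. Each exposed thyroid exceeded each control, and the lowest exposed signal exceeded the highest control signal by 1.00 on the log2 scale. The group means were 8.63 ± 0.34 and 10.26 ± 0.23 (SD, n = 4 arrays each), a log2 difference of 1.64 (SE 0.21, 95% interval 1.15 to 2.12), with an adjusted p of 0.0200 in the fit over all probes. The difference lay between 1.50 and 1.76 under the 15 other settings. The call itself was lost when 1 array was left out in 6 of 8 cases: the adjusted p was 0.0697 without Ct 2, 0.0523 without Ct 3, 0.0649 without S539, 0.0513 without S588, 0.0649 without S589 and 0.0738 without S590.

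Alox5ap, the membrane protein that presents arachidonic acid to Alox5, showed no such difference. Its log2 signal was 10.63, 10.40, 9.76 and 10.36 in the controls and 9.28, 10.11, 10.02 and 10.43 in the exposed thyroids. The groups overlapped, the highest exposed value (S590) lying within the control range and the lowest (S539) below it. The difference was -0.33 (95% interval -0.99 to 0.34), an interval that spans 0 and lies wholly below that of Alox5. The value depended on single arrays: it was -0.10 without S539, -0.22 without Ct 1 and -0.50 without Ct 3.

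Downstream of leukotriene A4, the probes for both converting enzymes had groups apart, in opposite directions. Ltc4s, which makes leukotriene C4, had log2 signals of 11.53, 11.36, 11.26 and 11.53 in the controls and 12.25, 12.16, 12.53 and 12.15 in the exposed thyroids. The exposed values were all higher, with a gap of 0.61 between the nearest arrays of the groups. The means were 11.42 ± 0.14 and 12.27 ± 0.18 (SD, n = 4 each), a difference of 0.85 (SE 0.15, 95% interval 0.51 to 1.19) or 1.81-fold. Its adjusted p of 0.0527 was just over the threshold. Under 5 other settings it was under the threshold, between 0.0115 and 0.0232. With any 1 array left out it was over the threshold, at up to 0.176 without Ct 2. The size of the difference hardly varied over the 15 settings (0.76 to 0.90).

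Lta4h, which makes leukotriene B4, differed little but evenly. Its log2 signal was 11.69, 11.60, 11.52 and 11.66 in the controls and 11.49, 11.42, 11.40 and 11.35 in the exposed thyroids. The groups did not overlap, but the nearest arrays were only 0.033 apart, and the difference was -0.20 (95% interval -0.47 to 0.066; adjusted p = 0.517). The spread of this probe within groups was small, with a residual SD of 0.066, and 1.34% of all probes had a smaller one. When arrays were scaled by their 75th percentile instead of by quantiles, the Lta4h groups overlapped.

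**Figure D2:**
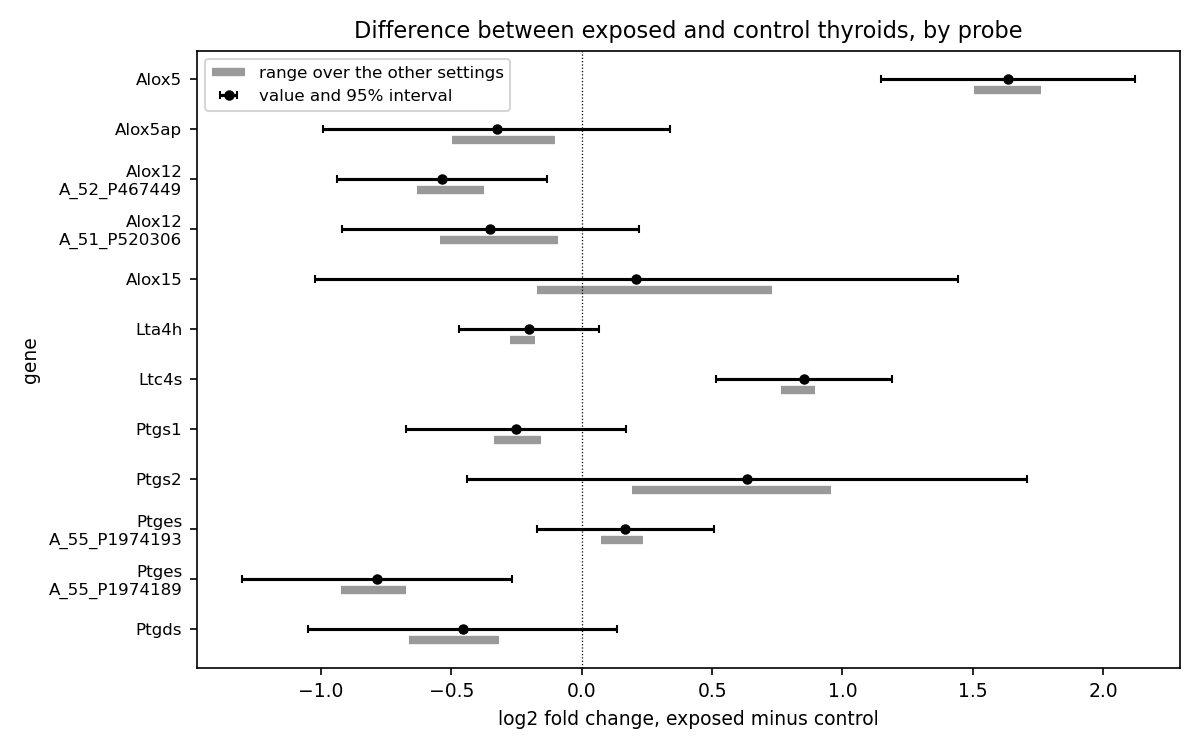
The difference in log2 signal between exposed and control thyroids (horizontal axis) for each of the 12 probes (vertical axis), with 95% intervals from the fit, and in grey the range of the same difference over the other processing settings, leaving out single arrays included. The grey ranges of Alox5 (1.50 to 1.76) and Ltc4s (0.76 to 0.90) are narrow and that of Alox15 (-0.17 to 0.73) crosses 0.

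The genes of the 12- and 15-lipoxygenases were not called. Alox12, the platelet-type 12-lipoxygenase, was read by 2 probes that start 1083 bases apart in its transcript. With the downstream probe (A_52_P467449, chr11:70055715-70055774) its log2 signal was 9.88, 10.23, 10.42 and 10.05 in the controls and 9.56, 9.59, 9.40 and 9.89 in the exposed thyroids. Only control 1 lay within the exposed range, and the difference was -0.54 (95% interval -0.94 to -0.13; adjusted p = 0.280). With the upstream probe (A_51_P520306, chr11:70063629-70063688) the values were 6.23, 6.89, 6.94 and 7.12 against 6.46, 6.06, 6.43 and 6.83. The upstream probe gave the same direction, -0.35 (95% interval -0.92 to 0.22), and again control 1 was the low control. When arrays were scaled by their 75th percentile, the upstream difference was only -0.092. Without control 1 the exposed arrays lay wholly below the controls for both probes. They did so for the downstream probe without S590 too.

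The Alox12 probes are shown for the same reason as the Ptges pair, with 30 bases of the downstream probe, in which all 3 frames hold a stop codon, and the whole of the upstream probe, in which 2 frames are free of one.
Alox12 upstream, minus strand: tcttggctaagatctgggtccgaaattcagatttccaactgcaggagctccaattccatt
Alox12 downstream, minus strand, bases 1 to 30 of the probe: acactccacattagtattctaactacaggg

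Alox15, the 12/15-lipoxygenase of macrophages and eosinophils, was near background. Its probe was well above background on 1 control array (Ct 1) and 3 exposed arrays (S539, S588 and S589). The log2 signal was 6.27, 5.37, 3.93 and 4.74 in the controls and 5.31, 4.87, 6.22 and 4.75 in the exposed thyroids. The groups overlapped, and the difference of 0.21 (95% interval -1.02 to 1.44) had no stable sign: it was -0.03 in the deposited value table, -0.17 without Ct 3 and -0.10 without S589.

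Neither cyclooxygenase gene was called. Ptgs1, the constitutive cyclooxygenase, had log2 signals of 10.68, 10.81, 11.11 and 10.89 in the controls and 10.86, 10.42, 10.86 and 10.33 in the exposed thyroids. Samples S588 and S590 lay below all controls and S539 and S589 among them, and the difference was -0.25 (95% interval -0.67 to 0.17), or -0.16 without S590.

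Ptgs2, the inducible cyclooxygenase, was read by 1 probe printed in 10 spots. That probe was well above background on none of the control arrays and on 1 exposed array, S590, where 6 of the 10 spots passed. Its log2 signal was 4.04, 3.96, 3.29 and 3.78 in the controls and 3.87, 3.49, 4.54 and 5.71 in the exposed thyroids. S539 and S588 were within the control range, and S589 and S590 were above it. Among the 10 spots of S590 the log2 signal ran from 4.17 to 9.36 with a median of 5.45, so the array's value rests on unequal spots. The mean of the exposed arrays, 4.40, was under 5.31, the mean of the lowest signals that counted as well above background on the control arrays, so no fold is given. At this signal, a difference in Ptgs2 was not detectable.

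The terminal prostaglandin synthases of the list, Ptges and Ptgds, were well above background on every array and neither was called. Ptges makes prostaglandin E2, and its 2 probes disagreed in sign. With the downstream probe shown above the log2 signal was 14.73, 14.55, 14.52 and 14.43 in the controls and 14.61, 15.01, 14.67 and 14.61 in the exposed thyroids. The groups overlapped, S588 stood above the rest, and the difference was 0.17 (95% interval -0.17 to 0.51), or 0.074 without S588. With the upstream probe the values were 10.56, 10.56, 10.03 and 9.80 against 9.47, 9.13, 9.68 and 9.52. All exposed values were lower, by 0.11 between the nearest arrays, and the difference was -0.79 (95% interval -1.30 to -0.27; adjusted p = 0.215), or 1.72-fold lower. In the deposited value table its groups overlapped. The upstream signal was highest in controls 1 and 2, which also had the high T cell and thymocyte marker means. The difference was -0.69 without Ct 1 and -0.67 without Ct 2. The part of T cells or thymocytes in this difference was not tested. The upstream interval lies wholly below the downstream one, which spans 0, so no direction is given for the gene. Why the 2 probes differ was not tested.

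Ptgds, which makes prostaglandin D2 and is also a secreted carrier of lipids, had log2 signals of 12.68, 12.80, 12.27 and 11.76 in the controls. In the exposed thyroids they were 12.23, 11.66, 11.97 and 11.84. Control 4 lay among the exposed samples, and the difference was -0.46 (95% interval -1.05 to 0.13; adjusted p = 0.508). Without control 4 the groups were apart. Controls 1 and 2, with the high T cell and thymocyte marker means, had the highest Ptgds signals too. The part of T cells or thymocytes in the Ptgds difference was not tested.

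Leukocyte markers were measured beside the enzymes, since Alox5, Alox5ap and Ltc4s are leukocyte genes in many tissues. All 12 neutrophil markers had a higher mean in the exposed group, but none was called by limma, 0 had a p under 0.05 before adjustment, and no marker had its groups apart. For some markers the higher mean rested on S588. Camp was 11.96 there, 6.12 to 6.62 in the other exposed thyroids and 6.50 to 6.82 in the controls. Ltf differed by only 0.0016 with S588 included. Others, such as Cxcr2, were not highest in S588. The mean log2 signal of the list was 7.78 to 8.34 in the controls and 7.73 to 11.17 in the exposed thyroids. The highest value was that of S588, followed by S539 at 8.72. S100a8, a gene of this neutrophil list, reached 13.35 in S588 against 5.84 to 8.67 elsewhere. Alox5 was 10.09 in S588 and 10.54, its highest value, in S539. The Alox5 difference was 1.72 without S588 and 1.54 without S539, against 1.64 with all arrays. The Ltc4s difference was 0.90 without S588 and 0.85 without S539.

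Other blood and immune cells known for this pathway were followed by their markers too. Of 12 macrophage markers 9 had a lower mean in the exposed thyroids, 3 with all exposed values lower (as for 6.21% of all genes), and the list mean was 9.29 to 9.54 in controls and 9.10 to 9.36 in exposed thyroids. Of 8 mast cell markers 6 had a lower mean (list mean 7.27 to 7.68 against 6.79 to 7.19). All exposed values were lower for 3, Cpa3, Kit and Fcer1a, as for 6.21% of all genes. The defining markers Fcer1a and Ms4a2 were well above background on no array, and the Fcer1a groups were only 0.011 apart. Of 8 dendritic cell markers 7 had a lower mean (list mean 8.11 to 8.89 against 7.41 to 7.47). All exposed values were lower for 3, as for 6.21% of all genes, and 1 was called lower, where 0.295% of all genes were. Ccr7, of the dendritic cell list, was 10.31 and 9.05 in controls 1 and 2, which had the high T cell marker means. It was 7.36 and 7.23 in controls 3 and 4. Clec9a, the marker called lower, was 6.62, 7.66, 7.25 and 6.73 in controls 1 to 4. The part of T cells in the Ccr7 difference was not tested. Eosinophil markers had list means of 5.46 to 6.85 and 5.71 to 6.42, and 3 of 5 had a lower mean in the exposed thyroids. Of 9 platelet markers 6 had a higher mean in the exposed thyroids (median difference 0.34). None was called by limma and 1 had a p under 0.05 before adjustment, as had 6772 of all 55681 probes. The platelet list means were 6.76 to 7.00 and 6.88 to 8.14, the highest again in S588. Thyrocyte markers had list means of 11.40 to 12.43 and 11.20 to 11.32. Of these 10 markers 8 had a lower mean in the exposed thyroids and 2 a higher one (median difference -0.41). All exposed values were lower for 2, as for 6.21% of all genes. Only Slc5a5 was called lower, with a difference of -3.53, which weighs on the list mean, while Tg differed by 0.041. The part of any of these cells in the differences of the enzyme genes was not tested.

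**Figure D3:**
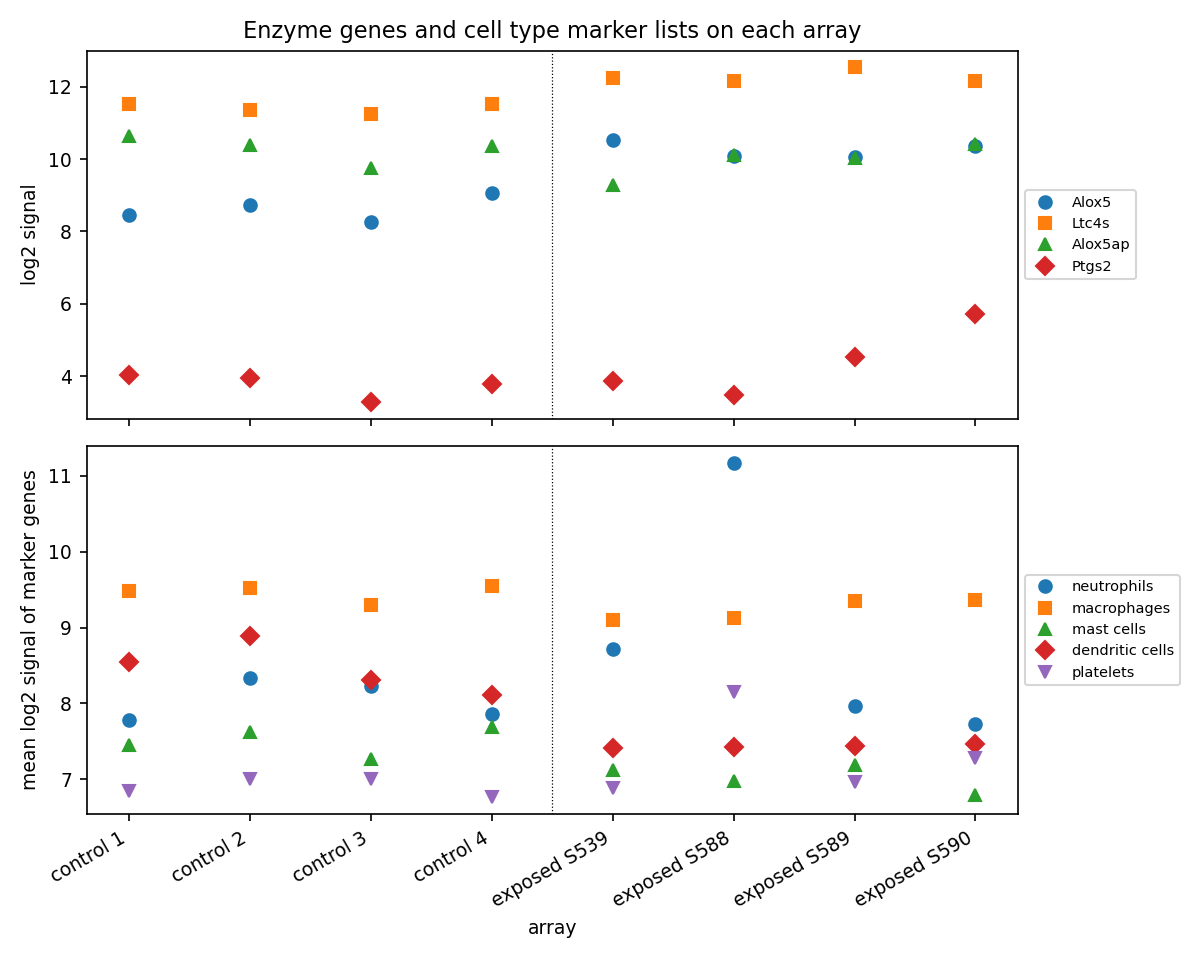
Log2 signals of Alox5, Ltc4s, Alox5ap and Ptgs2 (upper panel) and the mean log2 signal of 5 marker lists (lower panel) on each of the 8 arrays (horizontal axis), controls to the left of the dotted line. The neutrophil list is highest in S588 (11.17) and next in S539 (8.72), and Alox5 and Ltc4s are higher in the 4 exposed thyroids than in the controls.

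The rest of the eicosanoid pathway was followed in a list of 70 further genes, each read by 1 probe. Some of the genes, Ephx1 and Hpgd with 2 probes each among them, had further probes that are not described here. Of the 70 genes, 47 were well above background on all 8 arrays and 2 on none. One gene was called higher, where 0.904% of all genes were, and 2 were called lower, where 0.295% of all genes were. The groups were apart with the exposed arrays higher for 4 genes (5.44% of all genes) and lower for 6 (6.21% of all genes). The median difference of the list was -0.14, against -0.030 over all genes.

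The gene called higher was Ephx1, the microsomal epoxide hydrolase, listed under the epoxide branch. Its log2 signal was 14.91, 15.03, 15.66 and 15.55 in the controls and 17.52, 16.92, 17.16 and 17.14 in the exposed thyroids. The groups were 1.27 apart at the nearest arrays, and the difference was 1.90 (SE 0.22), or 3.73-fold, with an adjusted p of 0.0151. The adjusted p was 0.0590 without Ct 2, 0.0635 without S589 and 0.0606 without S590. Ephx2, the soluble hydrolase that opens epoxides of arachidonic acid, differed by 0.59 with overlapping groups (adjusted p = 0.509). The other 5 genes of this group, cytochrome P450 genes, were not called, and 6 of its 7 genes had a higher mean in the exposed thyroids.

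Both genes called lower act after prostaglandin synthesis. Hpgd, the dehydrogenase that starts the breakdown of prostaglandins, had log2 signals of 7.70, 8.54, 7.89 and 8.05 in the controls and 6.62, 5.95, 6.84 and 5.96 in the exposed thyroids. The exposed values were all lower, with a difference of -1.70 (SE 0.28), or 3.26-fold lower, and an adjusted p of 0.0423. Ptgir, the prostacyclin receptor, had 8.97, 9.52, 9.38 and 9.45 in the controls and 7.50, 7.45, 8.17 and 8.14 in the exposed thyroids. It too was lower in each exposed thyroid, with a difference of -1.52 (SE 0.23), or 2.86-fold lower, and an adjusted p of 0.0339. These 2 calls were lost when single arrays were left out: the adjusted p of Hpgd was between 0.0539 (without Ct 1) and 0.121 (without Ct 2), over the threshold in all 8 cases. That of Ptgir was 0.0394 without Ct 1 and over the threshold in the other 7 cases, at up to 0.122 without Ct 2.

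Slco2a1, which carries prostaglandins into cells for breakdown, was lower in each exposed thyroid. Its log2 signal was 12.74, 13.29, 13.30 and 12.42 in the controls against 11.78, 11.74, 11.59 and 11.88. The difference was -1.19 (SE 0.23) and was not called (adjusted p = 0.0748). It was called under 5 of the 15 other settings, with an adjusted p between 0.0234 and 0.0338, which made 3 pathway genes called lower there. With any 1 array left out Slco2a1 was not called, and its adjusted p was up to 0.204, without Ct 2. Of the 8 genes for breakdown and transport, 1 was called lower (0.295% of all genes were) and none higher (0.904% of all genes were). The groups were apart for 2 genes lower in the exposed thyroids, Hpgd and Slco2a1, as for 6.21% of all genes. They were apart for 1 higher gene, as for 5.44% of all genes. This was Cyp4f18, a hydroxylase of leukotriene B4, with a difference of 0.39.

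No gene of the 5 remaining groups was called by limma. Before adjustment, a p under 0.05 was found for 3 phospholipases A2 that were higher. It was also found for 2 phospholipases A2, 2 lipoxygenases, 2 prostanoid synthases and 1 leukotriene receptor that were lower. In either direction, 6772 of all 55681 probes had such an unadjusted p. Among 21 phospholipases A2 the largest differences of genes above background on every array were those of Pla2g4e (-1.35, groups overlapping) and Pla2g5 (-1.22, exposed values all lower, adjusted p = 0.179). The Pla2g4e signal was 8.90, 7.83, 7.46 and 9.75 in the controls and 5.94, 7.63, 5.84 and 9.14 in the exposed thyroids. The mean of 6 skeletal muscle markers, all with a lower mean in the exposed group (median difference -1.01), was 16.53, 15.87, 15.54 and 16.80 and 14.25, 15.89, 14.53 and 16.34 on the same arrays. The part of muscle in the Pla2g4e difference was not tested. Pla2g4a, the cytosolic enzyme that supplies arachidonic acid, had means of 10.76 and 10.82. Among the 4 other lipoxygenase genes, Alox12e differed by -2.19. However, its signal was 10.96 and 9.34 in controls 1 and 2 and 7.56 and 7.44 in controls 3 and 4. Controls 1 and 2 also had the high T cell marker means (12.82 and 11.68, against 7.93 to 9.18 on the other 6 arrays). The thymocyte marker means were high in controls 1 and 2 too. The part of T cells or thymocytes in the Alox12e difference was not tested. Aloxe3 differed by -0.84, with all exposed values lower (adjusted p = 0.179).

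Of the 7 genes that share or follow the leukotriene steps, 6 had a lower mean in the exposed thyroids. Among the 5 above background on every array, Dpep1 (-0.64), a dipeptidase that cuts leukotriene D4, and Mgst3 (-0.38) differed most, with overlapping groups, and Mgst3 was -0.19 without Ct 4. Of the 8 other prostanoid synthases, 7 were above background on every array, and of these Akr1b3 (-0.73, exposed values all lower, adjusted p = 0.254) and Prxl2b (-0.71) differed most. The Prxl2b signal was 14.28, 13.62, 12.96 and 14.44 in the controls and 12.65, 13.30, 12.74 and 13.76 in the exposed thyroids. Among the controls, Prxl2b and Mgst3 were higher in Ct 1 and Ct 4, and among the exposed samples in S588 and S590. So was the mean of the skeletal muscle markers. The part of muscle in the Prxl2b and Mgst3 differences was not tested. The leukotriene and lipoxin receptor genes included Cysltr1, a receptor for cysteinyl leukotrienes, at -0.81 (adjusted p = 0.298), and Ltb4r1, a receptor for leukotriene B4, at -0.35, both with overlapping groups. Apart from Ptgir, the largest difference among prostanoid receptors above background on every array was that of Ptger4, a prostaglandin E2 receptor, at -0.55 with overlapping groups, and this was -0.14 without S588.

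**Figure D4:**
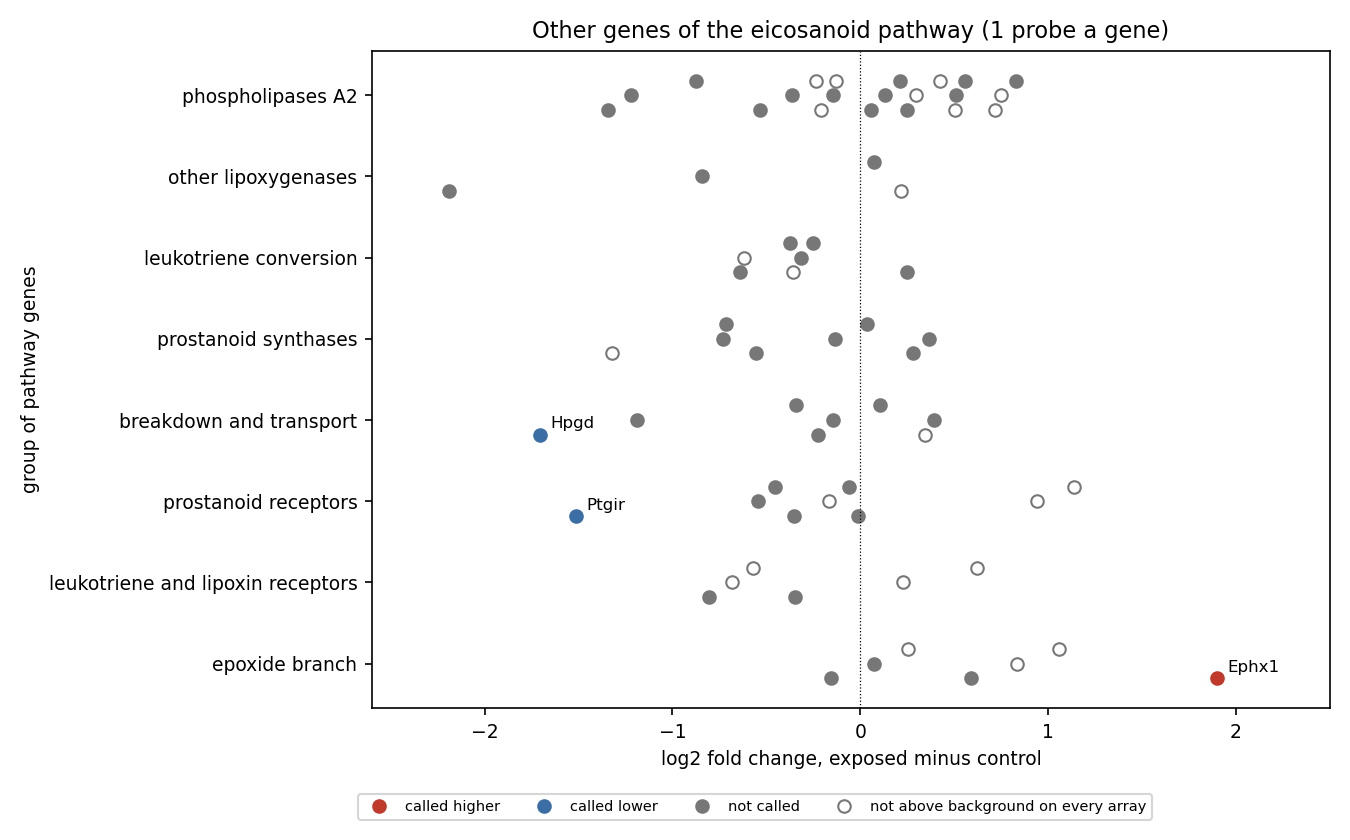
The difference in log2 signal between exposed and control thyroids (horizontal axis) for 70 other genes of the pathway, 1 point a gene, in 8 groups (vertical axis). Ephx1 (1.90) is the gene called higher, Hpgd (-1.70) and Ptgir (-1.52) are those called lower, and open points are genes not well above background on every array.

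The 5 genes whose log2 signals were most like those of Alox5 over the 8 arrays, among 15002 genes above background on every array, were Cln8, Zfp365, Tmem19, Snx16 and Plk5. Pearson's r with Alox5 was 0.990, 0.983, 0.983, 0.982 and 0.982. Since the 8 arrays fall into 2 groups that differ in Alox5, such values describe mainly the group difference. With the group means removed, r was 0.897, 0.871, 0.788, 0.813 and 0.774, in the same order. The genes were picked for a high r on these same arrays, which also favours a high r with the group means removed. Both sets of values are given as a description, over 8 arrays that share 1 slide.

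The upstream sequences of Alox5 and Ltc4s, the 2 members with all exposed values higher, are printed below, 250 bases before the annotated start of each gene, from RefSeq on GRCm38.p6. Promoter windows of 300 bases, from 250 before to 50 after the start, were at hand for 8 of the 10 genes. They were searched on both strands for 4 motifs. The GC box was read as GGGCGG, and the TATA box, which places the start of transcription in some genes, was read as TATAAA. The remaining motifs were the CCAAT box, in those letters, and the p53 half-site, by its name. Capitals mark a match.
Alox5, chr6:116461179-116461428, minus strand: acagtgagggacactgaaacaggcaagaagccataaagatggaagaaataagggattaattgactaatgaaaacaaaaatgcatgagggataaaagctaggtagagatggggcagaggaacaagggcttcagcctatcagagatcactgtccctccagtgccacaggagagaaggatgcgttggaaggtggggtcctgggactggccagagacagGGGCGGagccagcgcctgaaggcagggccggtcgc
Ltc4s, chr11:50238533-50238782, minus strand: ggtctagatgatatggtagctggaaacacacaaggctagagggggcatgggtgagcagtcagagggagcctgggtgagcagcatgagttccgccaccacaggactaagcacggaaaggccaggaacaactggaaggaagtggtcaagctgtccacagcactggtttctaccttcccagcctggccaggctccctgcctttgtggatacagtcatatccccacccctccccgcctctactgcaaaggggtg
The Alox5 window held 1 GC box, starting 35 bases before the start of the gene, and none of the other motifs. The Ltc4s window held none of the 4. Over all 32851 windows, 35.66% held a GC box, 13.62% a TATA box, 37.41% a CCAAT box and 8.36% a p53 half-site. Among the other 6 members, the Alox12 window held 3 GC boxes and 1 stretch that reads as a p53 half-site on both strands, the Ptges window 2 GC boxes, the Ptgs2 window 1 GC box and the Lta4h window 2 CCAAT boxes, while those of Ptgds and Ptgs1 held none. These are matches of letters in a window, and no binding was measured.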

How the data were processed

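Total RNA of 8 thyroids (4 Tc, 4 Ct) was labelled with Cy3 and hybridised to one-colour Agilent mouse arrays. Per array, the authors deposited spot intensity as read by Feature Extraction 10.7.3.1, and for the series a table of log2 values, which were those of the median spot intensity after quantile normalization, within 0.0378. The study's methods name quantile normalization in limma and an adjusted p of 0.05. Replicates were separate mice.

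Here the log2 of the background-subtracted intensity was quantile-normalized without control spots, spots of a probe were averaged, and lmFit and eBayes (limma 3.58.1, R 4.3.3) compared the groups with Benjamini-Hochberg adjustment over 55681 probes, a procedure tested on simulated data. Intervals and standard errors are those of the moderated fit. A probe was well above background where over 50% of its spots were. No non-control spot was saturated, and precision is limited by the 8 arrays. Genes other than the 10 were read by 1 probe, the RefSeq one with the highest mean.

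The members, the pathway and marker lists and the tests were chosen with earlier results of these data known. Named were all members and the 5 genes most like Alox5. Of each pathway group, the called genes were named and otherwise its 2 with the largest difference above background on every array. S100a8, Camp, Ltf, Cxcr2, Ccr7, Clec9a, Pla2g4a, Cyp4f18, Cyp2j5 and Mmp8 were added after their values were seen. Other settings were the 75th percentile as scale, normexp (offset 50), no background correction, the deposited table, outlier spots left out, dim probes left out, a variance trend, and leaving out each array. The protein sequences and the exon and UTR places of the probes were not analysed here. One marker of the thyrocyte list is not reported here.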

Additional observations from a re-analysis of the deposited data

Results flagged for a closer look

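For the downstream Ptges probe (A_55_P1974193), the exposed sample S588 had a log2 signal of 15.01, against 14.61 to 14.67 in the other 3 exposed thyroids. It was the highest of its group by a gap that took up 0.866 of the group's range, over the 95% critical value of Dixon's test for 4 arrays. Of 24 groups of 4 arrays examined (12 probes in each condition) 1 was marked in this way, where chance gives about 1.2.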

How the results depend on the processing

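Over the settings run, the 12 probes kept their direction and side of the threshold in 164 of 178 cases. In 5 cases Ltc4s was called when it had not been, in 6 the call of Alox5 was lost (each by leaving out 1 array), and in 3 Alox15 turned its sign, to -0.0283 in the deposited table, -0.173 without Ct 3 and -0.102 without S589 (its range without single arrays was -0.173 to 0.606). Of all probes, 435 were called, against 856 with normexp, 827 without background correction, 955 in the deposited table, 733 after dim probes were left out, 744 with a variance trend and 100 to 485 when single arrays were left out. Of the 12 probes, 2 were called in each of those 5 settings (normexp, no correction, the deposited table, dim probes left out, variance trend) and 0 to 1 without single arrays, and groups were apart for 4 to 7 without single arrays, the 7 without Ct 1. Pathway genes called higher numbered 0 to 1 and lower 0 to 1 without single arrays. The cause of these changes was not tested, though fewer arrays or fewer probes enter some fits. With the 75th percentile as scale the median difference of all probes was 0.165, against 0.0077 with quantiles, and 84.7% of called probes were higher, against 75.2% with quantiles; Alox5 was then 1.65 (adjusted p = 0.0202) and Ltc4s 0.86 (adjusted p = 0.0606). No paired analysis was possible because the labels give the groups no shared replicate numbers.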

Other observations

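Single arrays carried high signals of genes near background elsewhere. Cyp2j5, a cytochrome P450 of the epoxygenase family, had a log2 signal of 7.12 in the exposed sample S539 and 2.93 to 3.48 on the other 7 arrays. Mmp8, the neutrophil collagenase, had 11.14 in S588 and 2.98 to 4.38 on the other 7 arrays. Both genes were picked after their values were seen.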
